A study of Mus musculus with 6 samples.

Results

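The 29 genes described here mark the enteric nervous system of the mouse colon. They comprise 8 genes of enteric glia, 13 genes found in most enteric neurons (pan-neuronal) and 8 genes of transmitters and neuron subtypes. They were taken from a list of gene names, and each had at least 1 probe set among the 18194 genes on the array. The groups were GPR41 KO mice, GPR43 KO mice and wild-type (WT) mice, with 2 arrays each, all C57BL/6 and aged 6 to 8 weeks. Every mouse, WT included, received ethanol by the rectum, and the colon was taken 24 h later. Colon without ethanol was not analysed here. The labels do not give the sex of the mice, the deleted part of either allele, or whether the arrays of a group came from separate animals, so p-values measure only the spread between these arrays. Ffar3 encodes GPR41 and Ffar2 encodes GPR43, both receptors for short-chain fatty acids, and the series set each knockout against WT.

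The enteric nervous system lies in the gut wall as the myenteric plexus between the muscle layers and the submucosal plexus below the mucosa. Its neurons control peristalsis, secretion and blood flow through acetylcholine, nitric oxide and neuropeptides, several of which are often made by the same neuron. Enteric glia surround these neurons and derive, like them, from the neural crest. Whole colon contains few such cells among epithelium, muscle and immune cells, and in bulk RNA fewer neurons and less RNA per neuron cannot be told apart.

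Signals are MAS5 intensities on a linear scale, and fold changes are differences of log2(signal + 18), which understate the change of weak genes. A gene was tested if its log2 signal, averaged over 6 arrays, exceeded the 40th percentile of genes, which left 10916 genes. A gene passed if limma's p, adjusted by the Benjamini-Hochberg method over these 10916 genes, was under 0.05. Of the 29 genes, 19 were tested: 2 of 8 glial, 11 of 13 pan-neuronal and 6 of 8 transmitter genes. With 2 arrays against 2, an exact permutation test of a single gene cannot go below 0.333, and the number of arrays limits the precision of every value.

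The knockout label was checked on the deleted gene. The 2 libraries of GPR43 KO mice carry the labels G43KO-1 and G43KO-2 (replicates 1 and 2 in the figures). Ffar2 had a signal of 1598 in the library labelled G43KO-1 and 189 in G43KO-2, against 1194 and 1118 in WT. A second Ffar2 probe set gave 1142 and 76.3 in these GPR43 KO libraries, against 840 and 757 in WT. The library labelled G43KO-1 thus had no low Ffar2 signal, so many values of GPR43 KO against WT are also given without it. Leaving out any 1 library leaves 1 array in its group. An adjusted p of such a fit holds no spread within that group and only describes how a call depends on single arrays. Ffar3 was not analysed here, which leaves GPR41 KO without such a check. Colon markers were present in every array, with signals of 31148 to 67668 for Car1 of colonocytes and 3847 to 7040 for Myh11 of smooth muscle. The summed signal of 11 neutrophil genes was 1261 and 1076 in GPR41 KO, 3272 and 1222 in the libraries labelled GPR43 KO, and 78116 and 141675 in WT. In every list of GPR43 KO values below, the library labelled G43KO-1 comes first.

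Among transmitter genes, the neuropeptide genes Gal and Vip fell in GPR41 KO colon, and Gal also fell in GPR43 KO colon. Gal encodes galanin, a peptide of enteric neurons that acts on motility and secretion. Vip encodes vasoactive intestinal peptide, which relaxes gut muscle and drives epithelial secretion. Gal averaged 38.6% of the WT mean in GPR41 KO and 41.3% in GPR43 KO, and Vip averaged 44.1% in GPR41 KO and 56.6% in GPR43 KO. In G43KO-2 alone, Gal was at 33.2% and Vip at 47.9%. Each of the other 6 transmitter genes did not pass in either comparison or was too weak to be tested.

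Gal lies at chr19:3409915-3414544 of GRCm38.p6 and was read by 1 probe set. Its signal was 817 and 952 in GPR41 KO, 1131 and 759 in GPR43 KO, and 1962 and 2617 in WT. The WT arrays lay above every knockout array. Gal averaged 885 ± 95.8 in GPR41 KO, 945 ± 263 in GPR43 KO and 2289 ± 463 in WT (SD, n = 2 each). Its log2 fold change was -1.34 ± 0.21 (SE) in GPR41 KO against WT, with an adjusted p of 0.00919 by limma. Against WT, GPR43 KO gave -1.27 ± 0.21 (SE), with an adjusted p of 0.015. Without the library labelled G43KO-1, which leaves 1 GPR43 KO array, the GPR43 KO value was -1.56. Calls on Gal were lost when a single library was left out: the adjusted p was 0.0783 without GPR41 KO replicate 1 in the first comparison, and 0.0913 without G43KO-2 and 0.0545 without WT replicate 2 in the second.

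Vip lies at chr10:5639193-5647617 and was also read by 1 probe set. Its signal was 1986 and 2582 in GPR41 KO, 3390 and 2481 in GPR43 KO, and 4416 and 5954 in WT. All knockout arrays again lay below both WT arrays, with the library labelled G43KO-1 the nearest to them. Vip averaged 2284 ± 421 in GPR41 KO, 2935 ± 643 in GPR43 KO and 5185 ± 1088 in WT (SD, n = 2 each). Its log2 fold change was -1.17 ± 0.21 (SE) in GPR41 KO against WT, with an adjusted p of 0.0136. Leaving out GPR41 KO replicate 1 (adjusted p = 0.113) or WT replicate 2 (adjusted p = 0.0502) ended this call. The GPR43 KO value of -0.82 ± 0.21 (SE) did not pass, with an adjusted p of 0.0656. Without the library labelled G43KO-1 it was -1.04, and without WT replicate 1 it was -1.03.

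The 250 bases upstream of the RefSeq start of both peptide genes are shown because these were the transmitter genes that passed in GPR41 KO. They are given 5′ to 3′ on the gene's own strand from RefSeq GRCm38.p6, which is the minus strand at chr19:3414545-3414794 for Gal and the plus strand at chr10:5638968-5639217 for Vip. Capitals mark the half-site TGACG of the cAMP response element, the sequence bound by CREB proteins.
Gal: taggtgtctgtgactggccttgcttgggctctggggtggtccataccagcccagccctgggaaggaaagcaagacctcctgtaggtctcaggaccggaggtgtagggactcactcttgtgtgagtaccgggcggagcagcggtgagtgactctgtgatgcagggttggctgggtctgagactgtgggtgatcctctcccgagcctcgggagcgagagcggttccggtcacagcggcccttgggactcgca
Vip: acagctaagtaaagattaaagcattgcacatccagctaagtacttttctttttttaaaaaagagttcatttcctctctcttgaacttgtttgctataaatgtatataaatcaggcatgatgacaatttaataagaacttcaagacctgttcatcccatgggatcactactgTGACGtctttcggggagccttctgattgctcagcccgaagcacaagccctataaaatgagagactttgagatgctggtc
The Vip window held 1 half-site, which begins 79 bases upstream of the start, and the Gal window held none. A promoter entry was at hand for 20 of the 29 genes, and the half-site, searched on both strands, lay in 8 of these 20: Foxd3, Elavl4, Vip, Nos1, Chat, Tac1, Nmu and Hand2. Over 27025 genes with promoter entries of the same length, 19.8% held it in at least 1 entry. The full element TGACGTCA, which contains the half-site, lay in 1 of the 20 (Foxd3) and in 1.77% of the 27025 genes. The AP-1 site TGANTCA lay in 1 of the 20 (Nmu) and in 7.82% of the 27025 genes.

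The remaining transmitter genes gave mixed values. Tac1, which encodes the contractile peptide substance P, had a signal of 1164 and 1531 in GPR41 KO, 1612 and 1319 in GPR43 KO, and 1654 and 1942 in WT. The WT arrays were the highest, by a small margin. Its log2 fold change was -0.42 ± 0.18 (SE) in GPR41 KO (adjusted p = 0.231) and -0.29 ± 0.18 (SE) in GPR43 KO (adjusted p = 0.396), so neither passed. Nos1, the nitric oxide synthase of inhibitory motor neurons, had 433 and 530 in GPR41 KO, 725 and 335 in GPR43 KO, and 465 and 693 in WT. These ranges overlapped in both comparisons.

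Calb2 encodes the calcium-binding protein calretinin of excitatory neurons. Its signal was 882 and 1163 in GPR41 KO, 1455 and 1015 in GPR43 KO, and 688 and 1214 in WT, with overlap throughout. Nmu encodes neuromedin U, a peptide by which enteric neurons act on innate lymphoid cells. It had 239 and 236 in GPR41 KO, 318 and 198 in GPR43 KO, and 196 and 189 in WT, so that the WT arrays were the lowest of the 6, and it did not pass in either comparison. Nmu therefore lay on the opposite side of WT from Gal and Vip. Npy, which encodes neuropeptide Y, was below the filter, with 48.7 and 148 in GPR41 KO, 137 and 98.1 in GPR43 KO, and 161 and 199 in WT. Chat, the enzyme that makes acetylcholine, was also below the filter, at 29.1 and 85.7 in GPR41 KO, 72.04 and 45.4 in GPR43 KO, and 70.2 and 45.4 in WT.

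**Figure D1:**
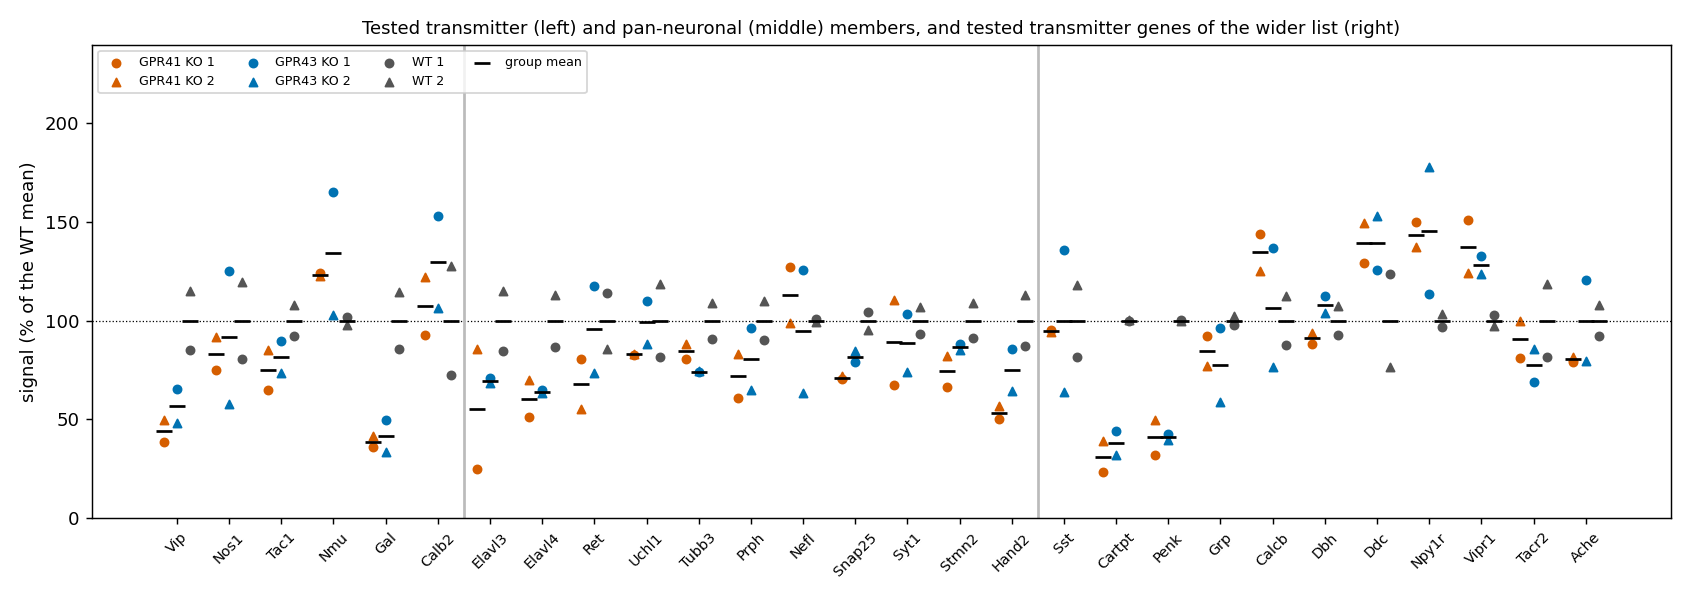
Signal of each array as a percentage of that gene's WT mean, with bars for group means. Shown are the 6 tested transmitter genes (left), the 11 tested pan-neuronal genes (middle) and 11 tested genes of a wider list (right). The wider list holds transmitter genes, with some enzymes and receptors such as Npy1r. Group means in the knockouts run between 31.1% (Cartpt) and 146% (Npy1r) of WT; Gal and Vip lie at 38.6% to 56.6%, Elavl3, Elavl4 and Hand2 at 53.4% to 74.9%, and Nmu at 123% and 134%.

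Of the 19 tested genes, 3 fell in GPR41 KO against WT (Gal, Vip and Hand2), none rose and 16 did not pass. That is 15.8% of the tested members, and 4.96% of all tested genes passed in this comparison in either direction. At an unadjusted p under 0.05, 7 of the 19 were lower and 0 higher, beside 10.3% lower and 9.22% higher of all tested genes. The count of 3 became 0 when GPR41 KO replicate 1 was left out and 1 when WT replicate 2 was left out. In GPR43 KO against WT, 1 of 19 fell (Gal) and 18 did not pass, or 5.26% of the tested members beside 3.96% of all tested genes. At an unadjusted p under 0.05, 3 were lower and 1 higher, beside 9.08% lower and 10.9% higher of all tested genes. The count in GPR43 KO was also 1 without the library labelled G43KO-1, though it was 0 without G43KO-2 or without WT replicate 2, and 2 without WT replicate 1.

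Over all 29 genes, both GPR41 KO arrays lay below both WT arrays in 15, or 51.7%, and above both in 2, or 6.9%. Over every gene, 23.9% had such lower and 20.9% such higher signals in GPR41 KO. In GPR43 KO, both arrays lay below WT in 13 of 29 genes, or 44.8%, and above WT in 3, or 10.3%, and over every gene these shares were 20.8% and 23.8%. Without the library labelled G43KO-1, the remaining GPR43 KO array lay below both WT arrays in 21 of 29 genes, or 72.4%, and above both in 3, beside 35.5% and 37.0% of every gene. The median log2 fold change over the 29 genes was -0.40 in GPR41 KO, against -0.01 over every gene, and -0.20 in GPR43 KO, against 0.02. Without GPR41 KO replicate 1 the first median was -0.23, and without the library labelled G43KO-1 the second was -0.44. Leaving out the library labelled G43KO-1 removes the GPR43 KO array nearer to WT. In it the mean log2 deviation from WT was -0.28 for glial, -0.11 for pan-neuronal and -0.02 for transmitter genes. The values in G43KO-2 were -0.50, -0.39 and -0.57 in the same order. Medians with the other libraries left out are not given here. The 29 genes were measured in the same arrays and are not independent. WT replicate 2 lay above WT replicate 1 in 20 of them and below it in 9, and this share was not computed over every gene.

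**Figure D2:**
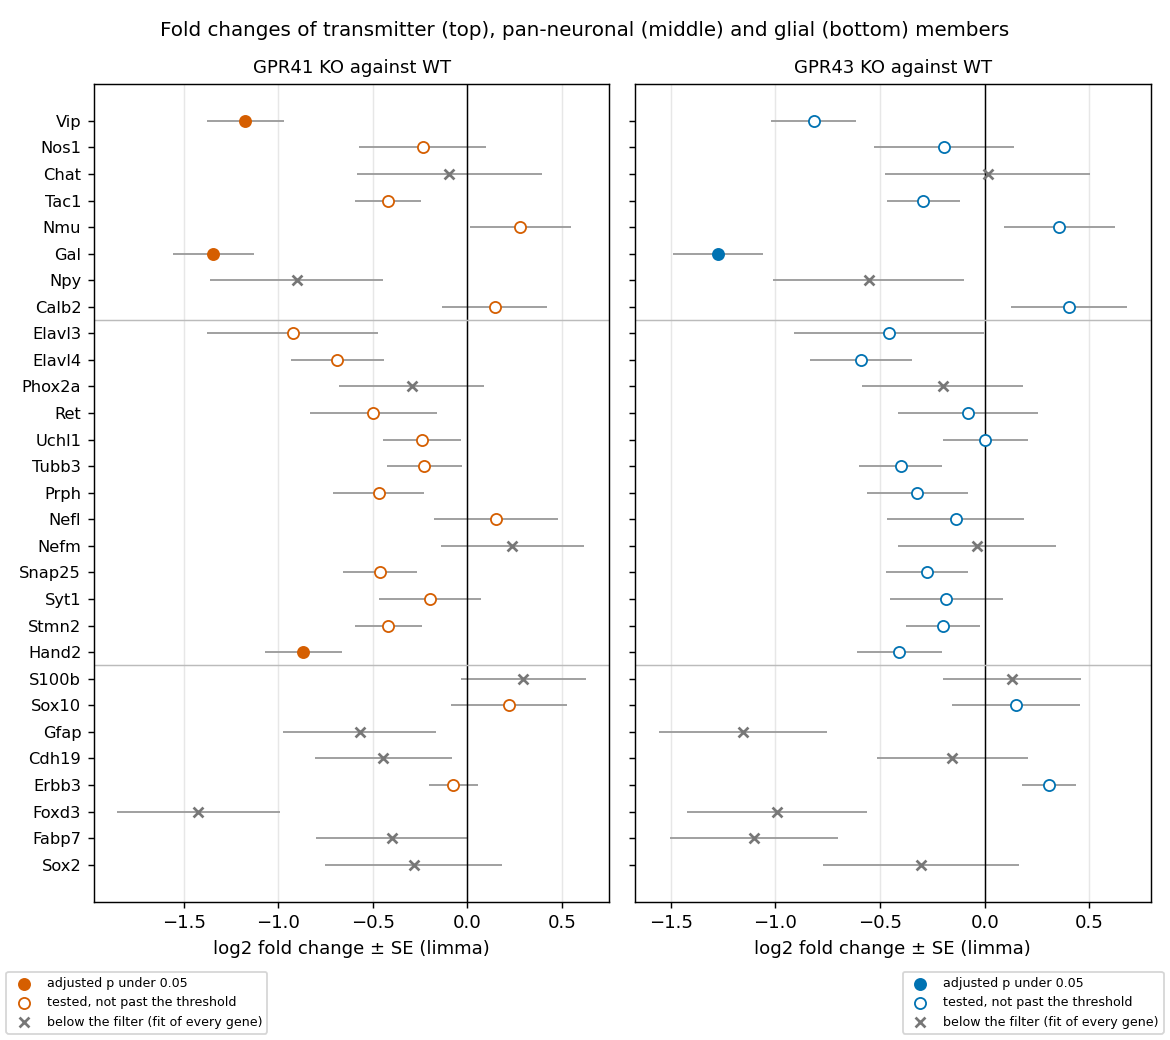
Log2 fold change ± SE (limma) of each of the 29 genes in GPR41 KO (left) and GPR43 KO (right) against WT; filled circles passed, open circles did not, and crosses are genes below the filter, from a fit of every gene. Most points lie below 0, 23 of 29 in GPR41 KO and 22 of 29 in GPR43 KO, and the 4 filled circles are Vip, Gal and Hand2 in GPR41 KO and Gal in GPR43 KO.

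Among the 13 pan-neuronal genes, Hand2 fell in GPR41 KO against WT, and no pan-neuronal gene passed in GPR43 KO. Hand2 is a transcription factor needed for enteric neurons to differentiate, and gut mesenchyme also expresses it. The gene lies at chr8:57320983-57324517. Its signal was 380 and 432 in GPR41 KO, 650 and 490 in GPR43 KO, and 662 and 859 in WT. The GPR41 KO arrays were the lowest of the 6, and the library labelled G43KO-1 lay close to WT replicate 1. Its log2 fold change was -0.87 ± 0.20 (SE) in GPR41 KO, with an adjusted p of 0.048, just under the threshold. In GPR43 KO it was -0.41 ± 0.20 (SE), with an adjusted p of 0.309, and -0.61 without the library labelled G43KO-1 (adjusted p = 0.292). The GPR41 KO call did not hold when any 1 of these was left out: GPR41 KO replicate 1 (adjusted p = 0.239), GPR41 KO replicate 2 (0.135), the library labelled G43KO-1 (0.0506) or WT replicate 2 (0.217). The mean over its 3 probe sets gave -0.55, with an adjusted p of 0.391, since the other probe sets differed by -0.37 and -0.42 in GPR41 KO.

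None of the other tested pan-neuronal genes passed. Elavl4, which encodes the neuronal RNA-binding protein HuD, had 180 and 247 in GPR41 KO, 229 and 224 in GPR43 KO, and 307 and 400 in WT. All 4 knockout arrays were below both WT arrays. Elavl4 differed by a log2 fold change of -0.69 ± 0.24 (SE) in GPR41 KO (adjusted p = 0.161) and -0.59 ± 0.24 (SE) in GPR43 KO (adjusted p = 0.221). Its other probe sets differed by -0.627 and -0.395 in GPR41 KO, but by only -0.092 and -0.084 in GPR43 KO. The size of the GPR43 KO value therefore rests on the probe set used. Snap25, a component of the vesicle fusion machinery, had 250 and 255 in GPR41 KO, 280 and 300 in GPR43 KO, and 370 and 338 in WT. Both knockout groups were again below WT, with a log2 fold change of -0.46 ± 0.20 (SE) in GPR41 KO (adjusted p = 0.239) and -0.28 ± 0.20 (SE) in GPR43 KO (adjusted p = 0.484).

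Stmn2 encodes a regulator of microtubules in growing axons. Its signal was 426 and 527 in GPR41 KO, 564 and 544 in GPR43 KO, and 584 and 698 in WT. The log2 fold change of Stmn2 was -0.42 ± 0.18 (SE) in GPR41 KO (adjusted p = 0.245) and -0.20 ± 0.18 (SE) in GPR43 KO (adjusted p = 0.586). Another Stmn2 probe set of similar signal differed by -0.141 in GPR41 KO and -0.019 in GPR43 KO, and both groups overlapped with WT there. Tubb3, the neuronal beta-tubulin, had 299 and 326 in GPR41 KO, 273 and 276 in GPR43 KO, and 337 and 404 in WT. All knockout arrays were below WT, with a log2 fold change of -0.23 ± 0.20 (SE) in GPR41 KO (adjusted p = 0.586) and -0.40 ± 0.20 (SE) in GPR43 KO (adjusted p = 0.302). For Prph, the intermediate filament peripherin, the signals were 351 and 482 in GPR41 KO, 556 and 376 in GPR43 KO, and 522 and 636 in WT. The GPR41 KO arrays were below WT, the GPR43 KO arrays overlapped with it, and neither difference passed (-0.47 ± 0.24 SE, adjusted p = 0.337, and -0.32 ± 0.24 SE, adjusted p = 0.508).

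Elavl3, which encodes the related protein HuC, differed widely within a group, with 47.3 and 162 in GPR41 KO, 135 and 130 in GPR43 KO, and 161 and 219 in WT. Uchl1, the deubiquitinase used as a stain for enteric neurons under the name PGP9.5, had 625 and 631 in GPR41 KO, 834 and 667 in GPR43 KO, and 617 and 898 in WT. The WT arrays spanned both GPR41 KO arrays. Ret, the receptor for the growth factor GDNF that enteric precursors need, had 130 and 89.3 in GPR41 KO. It had 190 and 119 in GPR43 KO, and 185 and 139 in WT. This probe set of Ret differed from WT by -0.498 in GPR41 KO and -0.079 in GPR43 KO. Another of similar signal differed by 0.131 and -0.4, so the direction in GPR41 KO rests on the probe set used. Syt1, the calcium sensor of vesicle release, had 254 and 415 in GPR41 KO, 388 and 277 in GPR43 KO, and 350 and 401 in WT. None of these 4 passed.

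The neurofilament gene Nefl had 234 and 182 in GPR41 KO, 231 and 117 in GPR43 KO, and 185 and 182 in WT, with no common direction. Its partner Nefm was below the filter, between 66.3 and 115 over the 6 arrays. Phox2a, a transcription factor of autonomic neurons, was below the filter as well, with 81.1 and 125 in GPR41 KO, 142 and 82.5 in GPR43 KO, and 116 and 141 in WT.

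**Figure D3:**
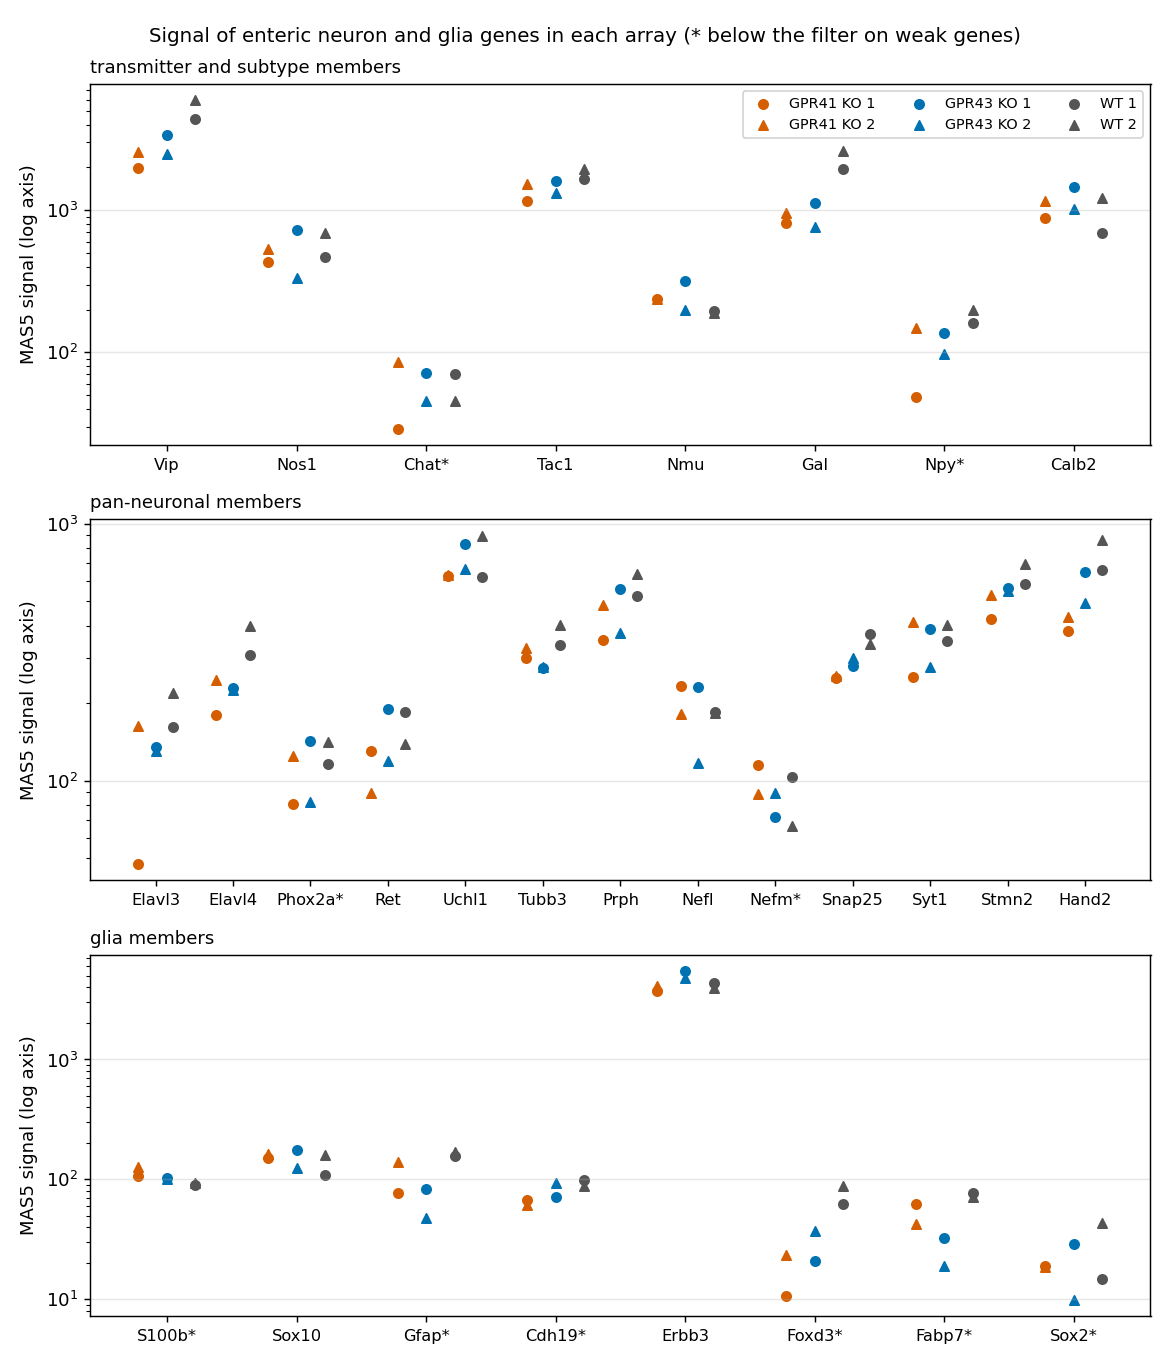
MAS5 signal (log axis) of each of the 29 genes in each of the 6 arrays, in panels for transmitter, pan-neuronal and glial genes; an asterisk marks genes below the filter. For Gal and Vip all 4 knockout arrays lie below both WT arrays, and 6 of the 8 glial genes are below the filter; signals of different genes are not comparable.

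The glial genes were mostly weak, and none passed. S100b, Gfap, Cdh19, Foxd3, Fabp7 and Sox2 were below the filter, which limits the label of glia to the tested genes Sox10 and Erbb3. Sox10 is the transcription factor that maintains the glial lineage. Its signal was 152 and 162 in GPR41 KO, 176 and 124 in GPR43 KO, and 108 and 161 in WT, with overlap in both comparisons. This probe set of Sox10 differed by 0.221 in GPR41 KO and 0.15 in GPR43 KO. Another of similar signal differed by -0.068 and -0.34. Erbb3, a neuregulin receptor of neural crest cells that gut epithelium also expresses, had 3708 and 4126 in GPR41 KO, 5463 and 4758 in GPR43 KO, and 4312 and 3932 in WT. Its log2 fold change was -0.07 ± 0.13 (SE) in GPR41 KO (adjusted p = 0.802) and 0.31 ± 0.13 (SE) in GPR43 KO (adjusted p = 0.227). The second Erbb3 probe set differed from the first in sign, with 0.18 in GPR41 KO and -0.67 in GPR43 KO, but it read only 4.15 to 43.98 over the 6 arrays, around the pseudocount.

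Weak glial genes were fitted without the filter only to describe them, and 0 of the 10 untested genes of the list passed there. At an unadjusted p under 0.05 that fit gave 1 of these 10 in GPR41 KO and 3 in GPR43 KO, beside 14.6% and 15.0% of every gene. Foxd3, a transcription factor of neural crest stem cells, had 10.6 and 23.5 in GPR41 KO, 20.8 and 37.5 in GPR43 KO, and 62.0 and 88.5 in WT. All knockout arrays were below WT, though several lay near the pseudocount, and the adjusted p was 0.157 in GPR41 KO and 0.325 in GPR43 KO. Gfap, the filament protein of reactive glia, had 76.7 and 140 in GPR41 KO, 83.5 and 47.3 in GPR43 KO, and 157 and 170 in WT. Its adjusted p was 0.59 in GPR41 KO and 0.222 in GPR43 KO.

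Fabp7, a fatty acid-binding protein of glia, had 62.9 and 42.8 in GPR41 KO, 32.2 and 18.9 in GPR43 KO, and 77.2 and 71.6 in WT, with an adjusted p of 0.726 in GPR41 KO and 0.242 in GPR43 KO. S100b, a calcium-binding protein used as a glial stain, ran the other way, with 107 and 126 in GPR41 KO, 103 and 101 in GPR43 KO, and 89.3 and 94.2 in WT. Its other, weaker probe set differed by -0.364 in GPR41 KO and 0.517 in GPR43 KO. Cdh19, a cadherin of the glial lineage, ranged between 61.3 and 99.2, and Sox2, a transcription factor of neural progenitors and glia, between 9.96 and 43.1. Of the 8 glial genes, 6 had an estimate below 0 in GPR41 KO and 5 in GPR43 KO, so they did not all share a direction.

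With the library labelled G43KO-1 left out, none of the tested genes above that missed the threshold in GPR43 KO passed. The log2 fold change in GPR43 KO was then -0.44 for Tac1 and -0.61 for Elavl4, with adjusted p of 0.388 and 0.421. It was -0.23 for Snap25, -0.22 for Stmn2, -0.39 for Tubb3 and -0.59 for Prph, with adjusted p between 0.353 and 0.732, and 0.21 for Erbb3 (adjusted p = 0.602). The value of Prph moved the most among these, though some tested genes not listed here moved more. With any 1 library left out, Nos1 in GPR43 KO against WT ran between -0.732 and 0.342, and Nefl between -0.583 and 0.305.

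Taking the mean log2 deviation from WT over each group of genes, the 8 transmitter genes gave -0.73 and -0.21 in GPR41 KO, -0.02 and -0.57 in GPR43 KO, and -0.14 and 0.14 in WT. The library labelled G43KO-1 lay within the range of WT. Without Gal and Vip, the other 6 transmitter genes gave -0.50 and 0.09 in GPR41 KO, 0.24 and -0.33 in GPR43 KO, and -0.11 and 0.11 in WT, so that GPR41 KO overlapped with WT and GPR43 KO had an array on either side of it. The 13 pan-neuronal genes gave -0.49 and -0.26 in GPR41 KO, -0.11 and -0.39 in GPR43 KO, and -0.07 and 0.07 in WT. Every knockout array was below both WT arrays there, with the library labelled G43KO-1 close to WT. The 8 glial genes gave -0.41 and -0.26 in GPR41 KO, -0.28 and -0.50 in GPR43 KO, and -0.10 and 0.10 in WT. Every knockout array was below both WT arrays there too, but most of these genes were below the filter. The weak genes Foxd3, Gfap and Fabp7 contribute to this mean.

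No gene of the list passed between the knockouts. In GPR43 KO against GPR41 KO, 0 of 19 tested genes passed by limma, as did 0.0% of all tested genes, and 1 (Erbb3, higher) had an unadjusted p under 0.05, beside 3.28% higher and 2.18% lower of all tested genes. Gal differed by 0.07 ± 0.21 (SE, log2; adjusted p = 0.985), Vip by 0.35 ± 0.21 (adjusted p = 0.895) and Hand2 by 0.46 ± 0.20 (adjusted p = 0.87). Both GPR43 KO arrays lay above both GPR41 KO arrays in 6 of 29 genes and below them in 3, and over every gene these shares were 21.8% and 14.1%. Without the library labelled G43KO-1, 0 of 19 passed and 0 had an unadjusted p under 0.05, and the differences were -0.21 for Gal, 0.13 for Vip and 0.26 for Hand2. Both knockout groups were compared with the same WT arrays, so their differences from WT are not independent of each other.

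A wider list of enteric nervous system genes (signals and receptors, glia, neurons, transmitters) held 79 further genes, of which 55 were tested. In GPR41 KO against WT, Pmp22 rose and Penk, Cartpt and Zeb2 fell, and 51 did not pass. Against WT, GPR43 KO had Pmp22 higher and Penk, Cartpt and Syt4 lower, and 51 did not pass. In each comparison 7.27% of the 55 genes passed, beside 4.96% (GPR41 KO) and 3.96% (GPR43 KO) of all tested genes. With the library labelled G43KO-1 left out, the log2 fold change in GPR43 KO was 1.28 for Pmp22, -1.32 for Penk, -1.58 for Cartpt and -1.66 for Syt4. In GPR43 KO against GPR41 KO none passed. At an unadjusted p under 0.05, 3 of the 55 were higher and 0 lower, beside 3.28% higher and 2.18% lower of all tested genes.

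Of the 11 tested transmitter genes of the wider list, Penk and Cartpt fell in each knockout and 9 did not pass. Among those 9, Sst (somatostatin) averaged 94.7% of its WT mean in GPR41 KO and 99.9% in GPR43 KO. Grp (gastrin-releasing peptide) averaged 84.4% in GPR41 KO and 77.6% in GPR43 KO, and Calcb (a calcitonin gene-related peptide) 135% in GPR41 KO and 106% in GPR43 KO. In GPR41 KO and GPR43 KO in turn, Ddc averaged 139% and 140%, Npy1r 144% and 146%, and Vipr1 138% and 128%. In the same order, Dbh averaged 91.0% and 108%, Tacr2 90.55% and 77.3%, and Ache 80.3% and 100%. Penk encodes the enkephalin precursor, an opioid of enteric motor neurons, and lies at chr4:4133536-4138815. Its signal was 529 and 825 in GPR41 KO, 706 and 656 in GPR43 KO, and 1663 and 1657 in WT. As a share of WT, Penk averaged 40.8% in GPR41 KO, and GPR43 KO averaged 41.0%. The log2 fold change of Penk was -1.30 ± 0.20 (SE) in GPR41 KO (adjusted p = 0.00755), and this call held with any 1 library left out. In GPR43 KO it was -1.26 ± 0.20 (SE, adjusted p = 0.0114). It was -1.32 without the library labelled G43KO-1 and -1.21 without G43KO-2, where the call was lost.

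Cartpt encodes the CART peptide of a set of myenteric neurons and lies at chr13:99898483-99910179. Its signal was 152 and 252 in GPR41 KO, 287 and 206 in GPR43 KO, and 649 and 650 in WT, so that the WT arrays stood well above the rest. The log2 fold change was -1.64 ± 0.27 (SE) in GPR41 KO (adjusted p = 0.0102) and did not hold when GPR41 KO replicate 1 was left out (adjusted p = 0.0653). In GPR43 KO it was -1.35 ± 0.27 (SE; adjusted p = 0.0291) and was lost without the library labelled G43KO-1 (adjusted p = 0.0531), G43KO-2 (0.173) or WT replicate 2 (0.0926). The same call also missed the threshold with no filter on weak genes (adjusted p = 0.0509).

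Pmp22, a membrane protein of myelin that many epithelia also make, had 20833 and 14787 in GPR41 KO, 14063 and 16311 in GPR43 KO, and 7764 and 5811 in WT. Pmp22 had a log2 fold change of 1.38 ± 0.20 (SE) in GPR41 KO (adjusted p = 0.00538) and 1.17 ± 0.20 (SE) in GPR43 KO (adjusted p = 0.015). The second value was 1.28 without the library labelled G43KO-1 and 1.06 without G43KO-2, where the call was lost. Zeb2, a neural crest transcription factor also expressed by myeloid cells, had 215 and 235 in GPR41 KO, 310 and 298 in GPR43 KO, and 415 and 407 in WT. It gave -0.82 ± 0.19 (SE) in GPR41 KO, with an adjusted p of 0.0477 that lay between 0.0756 and 0.227 with 1 library left out, and the mean over its probe sets gave -0.55 (adjusted p = 0.294). Syt4, a synaptotagmin of neurons and endocrine cells, gave -1.37 ± 0.30 (SE) in GPR43 KO (adjusted p = 0.0401, and 0.0532 without the library labelled G43KO-1) and -1.21 ± 0.30 (SE) in GPR41 KO (adjusted p = 0.0548). Its GPR43 KO call was also lost without either GPR41 KO library (adjusted p = 0.0608 and 0.0615), G43KO-2 (0.21) or WT replicate 2 (0.184), and the mean over probe sets gave -0.55 (adjusted p = 0.482).

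Marker genes of other colon cells also differed between the groups. Of 11 neutrophil genes, 10 were tested and 10 fell in each knockout against WT, and none was at 0 in any array. Among all tested genes, 3.11% fell and 1.85% rose in GPR41 KO, and 2.41% fell and 1.55% rose in GPR43 KO. The summed signal of 15 smooth muscle genes was 141902 and 162903 in GPR41 KO, 185454 and 160001 in GPR43 KO, and 112800 and 131421 in WT, and 2 of 15 rose in GPR41 KO and 3 of 15 in GPR43 KO. The 11 colonocyte genes summed to 270145 and 274192 in GPR41 KO, 301119 and 272158 in GPR43 KO, and 199316 and 216404 in WT, and 2 of 11 rose in GPR41 KO and 1 of 11 in GPR43 KO. The 5 genes of interstitial cells of Cajal, the pacemaker cells beside the myenteric plexus, summed to 7950 and 8435 in GPR41 KO, 10441 and 10960 in GPR43 KO, and 6644 and 4964 in WT, with 1 of 4 tested that rose in each. The summed muscle, colonocyte and pacemaker signals were thus higher in every knockout array than in either WT array. Ano1, the pacemaker gene that rose, made up much of the pacemaker sum. It had 4391 and 4917 in GPR41 KO, 6934 and 6944 in GPR43 KO, and 2984 and 2792 in WT. Kit, another pacemaker marker, had 501 and 672 in GPR41 KO, 802 and 730 in GPR43 KO, and 707 and 553 in WT. Kit thus overlapped with WT in GPR41 KO, and the pacemaker sum does not stand for each of its genes.

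The 12 enteroendocrine genes, some of which neurons share, summed to 29661 and 33232 in GPR41 KO, 36004 and 27976 in GPR43 KO, and 28743 and 31540 in WT, with overlap in both comparisons. In GPR41 KO, 2 of these rose and 1 fell, and in GPR43 KO 1 rose and 1 fell. The 8 fibroblast genes summed to 34095 and 43149 in GPR41 KO, 44533 and 45631 in GPR43 KO, and 40026 and 57992 in WT, with 0 of 8 past the threshold in either comparison and at most 2 in any direction at an unadjusted p under 0.05. The 8 adipocyte genes summed to 6589 and 6700 in GPR41 KO, 5647 and 4803 in GPR43 KO, and 5105 and 6210 in WT, and of 7 tested 2 rose and 1 fell in GPR41 KO and 1 fell in GPR43 KO. With that GPR43 KO library (labelled G43KO-1) left out, the remaining GPR43 KO array lay below both WT arrays in 11 of 11 neutrophil genes. The GPR43 KO calls on muscle, colonocyte and enteroendocrine genes were lost there, and calls were fewer over all tested genes too. The remaining GPR43 KO array lay above both WT arrays in 11 of 15 muscle and 11 of 11 colonocyte genes, and below both in 0 of either list. For the 12 enteroendocrine genes it lay above both in 3 and below both in 7. Over every gene these shares were 37.0% above and 35.5% below. The part of these cell types in the values of Gal, Vip and Hand2 was not tested.

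**Figure D4:**
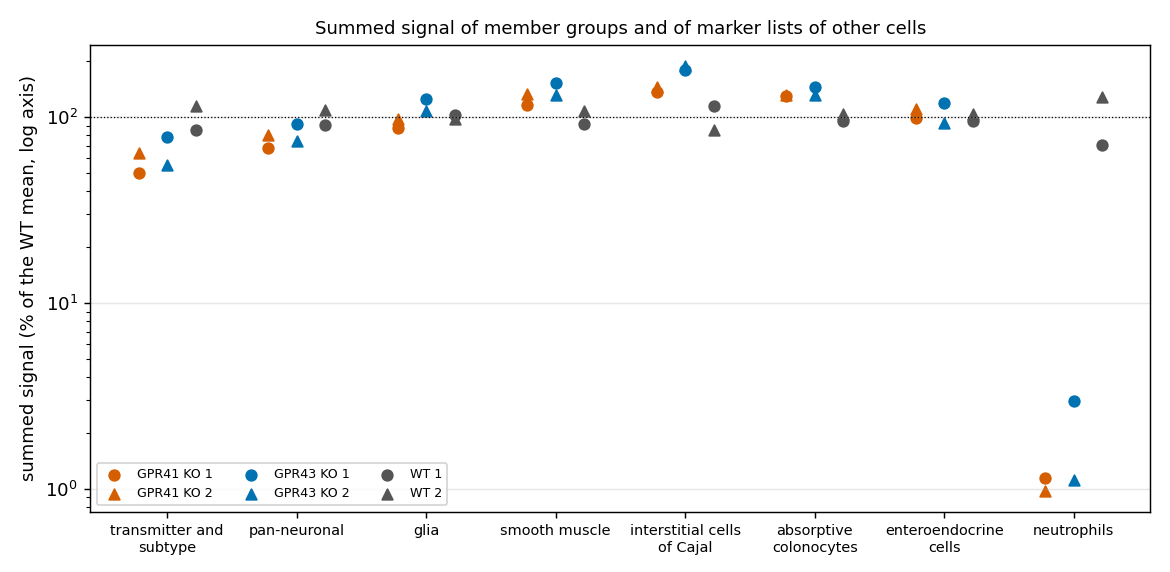
Summed signal of the transmitter, pan-neuronal and glial genes and of marker lists of other cells, as a percentage of the WT mean (log axis), for each array. For GPR41 KO the average is 57.1% for the transmitter genes, 74.2% for the pan-neuronal genes and 1.06% for the neutrophil genes, and for GPR43 KO it is 67.2%, 83.3% and 2.04% in the same order of lists. Without Gal and Vip, the other 6 transmitter genes average 86.3% (GPR41 KO) and 97.5% (GPR43 KO). The glial sum, most of which is Erbb3, averages 93.0% in GPR41 KO and 117% in GPR43 KO, and the other 7 glial genes average 80.8% (GPR41 KO) and 71.7% (GPR43 KO).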

How the data were processed

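Total RNA from 6 mouse colon samples (2 µg each, Trizol and a Qiagen kit, biotin-labelled cRNA) was hybridised to 1 Affymetrix array per sample, per the labels. The deposited intensity of each probe set was made by the authors with MAS5, per the submitters' processing notes, with no version given in the sources used here. The deposited values were already scaled, with a mean of 500.0 in every array after the lowest and highest 2% were left out. Of 45101 probe sets, 34958 carried 1 gene symbol, 932 several and 9211 none, and 34754 were matched by Entrez identifier to RefSeq of GRCm38.p6. The probe set with the highest mean log2 signal was kept for each gene, which 15 of the 29 genes needed. A pseudocount of 18, near the 20th percentile of all values, was added before log2. limma 3.58.1 in R 4.3.3 (lmFit, eBayes with an intensity trend) fitted 1 mean per group to all 6 arrays, with two-sided p-values adjusted by the Benjamini-Hochberg method and a total of 8.71 degrees of freedom. The fit was tested on simulated data. Groups came from the sample titles.

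The 29 genes, the wider lists and the tests were chosen with earlier results of these data known. The text names all 29 genes, the genes of the wider list past the threshold, its tested transmitter genes, and markers of other cells. A further 11 genes of the lists had no probe set joined to them and were not analysed here. Alternatives covered the pseudocount, the normalization, the filter, the mean over probe sets, the 2 groups alone, a replicate block and each library left out.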

Additional observations from a re-analysis of the deposited data

How the results depend on the processing

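The number of the 29 genes past the threshold in GPR41 KO against WT was 3, between 0 (without GPR41 KO replicate 1) and 3 with 1 library left out, and 2 or 3 under every other setting. In GPR43 KO against WT it was 1, between 0 (without G43KO-2 or WT replicate 2) and 2 (without WT replicate 1), and 2 under median centring, where Vip also passed (adjusted p = 0.0283). In GPR43 KO against GPR41 KO it was 0 under every setting run. The replicate block gave 2, 1 and 0 genes in these comparisons, with an adjusted p of 0.0905 for Hand2 in GPR41 KO. In GPR43 KO the block also ended the calls of Cartpt (adjusted p = 0.0585) and Syt4 (0.0784), and in GPR41 KO that of Zeb2 (0.0917). Syt4 in GPR43 KO also missed the threshold without the filter (0.074) and with the 2 groups alone (0.059), and Zeb2 in GPR41 KO under quantile normalization (0.0674), median centring (0.0681), no filter (0.0929) and the 2 groups alone (0.0748). The replicate numbers do not show that arrays belong together, since deviations of same-numbered arrays correlated at 0.11 (GPR41 KO and WT), -0.27 (GPR43 KO and WT) and -0.05 (GPR43 KO and GPR41 KO). Hand2 in GPR41 KO also missed the threshold under quantile normalization (adjusted p = 0.0672), without the filter (0.0743), with the filter at the 60th percentile (0.0551) and with the 2 groups alone (0.0504).

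Among the fold changes followed through every setting, signs turned for 4 small differences. Genes outside that set also turned sign with 1 library left out, such as Nos1 and Nefl in GPR43 KO. Erbb3 in GPR41 KO gave 0.021 under median centring, 0.054 as the mean over probe sets, and -0.15 to 0.003 with 1 library left out. As the mean over probe sets, Tac1 in GPR43 KO gave 0.037 and Erbb3 in GPR43 KO gave -0.18. Gal in GPR43 KO against GPR41 KO gave -0.025 under median centring and -0.21 to 0.35 with 1 library left out. The medians of the 29 genes ranged between -0.43 and -0.23 in GPR41 KO and between -0.24 and -0.17 in GPR43 KO under the other scalings and pseudocounts. Over all tested genes, 202 rose and 339 fell in GPR41 KO and 169 rose and 263 fell in GPR43 KO. The filter at the 60th percentile gave 165 and 170 in GPR41 KO and 140 and 140 in GPR43 KO, and median centring gave 317 and 339 in GPR41 KO. With replicate 1 of GPR41 KO left out its counts were 56 and 139, with replicate 2 left out 65 and 196, with WT replicate 1 left out 378 and 513, and with WT replicate 2 left out 114 and 187. The GPR43 KO counts were 57 and 165 without the library labelled G43KO-1, 25 and 104 without G43KO-2, 358 and 401 without WT replicate 1, and 94 and 146 without WT replicate 2. A total of 10 of the 29 genes lay below the filter, where background limits what can be compared. The cause of the calls lost under these settings was not tested.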
